A study of Mus musculus with 18 samples.

Results

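The cyclin-dependent kinase inhibitors are 7 genes in the mouse, and all 7 rows carrying their symbols were taken from the tables of crypts, day 1 enteroids and day 3 enteroids, which list between 17423 and 17759 genes each. RNA was sequenced from duodenal crypts of 3 WT and 3 Mtgr1-/- mice and from enteroids grown from those crypts, harvested 1 day and 3 days post-plating, which gives 18 bulk libraries in 6 groups of 3. Enteroids are crypt-derived epithelial cultures in a basement membrane matrix, and both genotypes were kept in the same medium with EGF, Noggin and R-spondin. The mice were age-matched littermates of both sexes, and the allele is a global loss of Mtgr1 (listed as Cbfa2t2), a transcriptional co-repressor that binds E proteins, so every cell type of the donor carried it.

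The Cbfa2t2 count did not mark the genotype. In crypts it ranged from 523 to 614 normalized counts in WT and from 466 to 697 in Mtgr1-/- libraries, at day 1 from 710.2 to 788 and from 789 to 1160.3, and at day 3 from 774 to 883 and from 766 to 976, so the genotype rests on the labels, and Mtgr1-/- here means a library labelled so. Reads could be recovered for 16 libraries and ranged from 22035316 to 28621990 per library. The crypt libraries of mouse 3 had the highest mitochondrial shares, 13.45% in WT and 11.7% in Mtgr1-/-, against at most 6.99% elsewhere. The WT crypt library of mouse 3 also held a summed level of 10790 normalized counts over 8 immune markers, against at most 1657 in the other 5 crypt libraries. Epithelial markers (6 genes) summed to between 139400 and 371400 in every library.

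Cyclin-dependent kinases drive the cell through the G1 and S phases when bound to a cyclin, and the inhibitors hold them back. The CIP/KIP family, p21 (Cdkn1a), p27 (Cdkn1b) and p57 (Cdkn1c), binds complexes of cyclins D, E and A with their kinases. The INK4 family, p16 (Cdkn2a), p15 (Cdkn2b), p18 (Cdkn2c) and p19Ink4d (Cdkn2d), binds Cdk4 and Cdk6 and keeps them from cyclin D, which leaves RB unphosphorylated and E2F silent. In the intestine, cells divide in the crypt and leave the cycle as they differentiate, and p21 and p27 are known from cells near that exit. Much of the control of p27 acts on the protein, which RNA levels do not show.

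The genes lie on 5 chromosomes of GRCm38. Cdkn1a is at chr17:29090976-29100727 on the plus strand, Cdkn1b at chr6:134920401-134925513 on the plus strand, Cdkn1c at chr7:143458339-143461050 on the minus strand and Cdkn2d at chr9:21288410-21291407 on the minus strand. Cdkn2a (chr4:89274471-89294653) and Cdkn2b (chr4:89306299-89311039) are neighbours on the minus strand, 11645 bp apart, and Cdkn2c lies further along the same chromosome (chr4:109660876-109667189, minus strand). Cdkn2a encodes both p16 and the unrelated p19Arf from different first exons, and its gene-level count cannot separate them. Cdkn1a and Cdkn1c each overlap an unlisted gene on the opposite strand, and the libraries were made with a stranded kit.

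Promoter sequence is shown for Cdkn1a and Cdkn2b, the most abundant inhibitors that were higher in Mtgr1-/- enteroids, and for Cdkn1b, which was lower, because Mtgr1 is known to bind E proteins, which recognise the E-box CANNTG. Each line gives the 250 bases before a RefSeq start on GRCm38.p6, with E-boxes and GC boxes (GGGCGG on either strand) in capitals. The Cdkn1a window (chr17:29093519-29093768) lies in an intron of the longer transcripts, before the start of a shorter one. The Cdkn1b window (chr6:134920151-134920400) is upstream of the gene, and the Cdkn2b window (chr4:89311033-89311282) shares its last 7 bases with the first exon.
Cdkn1a: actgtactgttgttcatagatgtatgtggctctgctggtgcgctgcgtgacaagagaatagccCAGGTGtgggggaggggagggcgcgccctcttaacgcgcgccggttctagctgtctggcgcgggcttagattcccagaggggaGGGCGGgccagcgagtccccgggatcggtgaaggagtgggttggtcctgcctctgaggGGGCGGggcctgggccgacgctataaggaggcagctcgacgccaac
Cdkn2b: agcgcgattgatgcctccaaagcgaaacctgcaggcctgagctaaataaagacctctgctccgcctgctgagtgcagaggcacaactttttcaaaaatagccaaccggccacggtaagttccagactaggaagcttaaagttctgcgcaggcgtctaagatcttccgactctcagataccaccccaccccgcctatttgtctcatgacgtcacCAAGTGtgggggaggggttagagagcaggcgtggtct
Cdkn1b: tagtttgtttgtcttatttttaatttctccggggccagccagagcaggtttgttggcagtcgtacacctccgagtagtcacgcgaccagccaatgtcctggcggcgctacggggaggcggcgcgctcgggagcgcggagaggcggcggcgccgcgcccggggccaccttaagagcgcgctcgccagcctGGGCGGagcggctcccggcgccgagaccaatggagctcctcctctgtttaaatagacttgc

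The promoter set used held 9 windows from 6 members and none for Cdkn1c. An E-box was present in 2, the Cdkn1a window shown (CAGGTG, beginning 187 bases before the start) and the Cdkn2b window (CAAGTG, 37 bases before the start). The other Cdkn1a window (chr17:29090729-29090978), at the start of the longer transcripts, held 0 E-boxes and 0 GC boxes. Of 32851 mouse windows of this length, 66.2% hold an E-box. A GC box, the letters bound by Sp1 and Klf factors, was present in 5 of the 9 windows and in 32.7% of all windows, with sites 104 and 46 bases before the Cdkn1a start and 61 bases before the Cdkn1b start. CCAAT was present in 2 of the 9 (33.8% of all windows) and TATAAA in 0 (12.4%), each sought on both strands, and none of these motifs overlapped another in the windows shown. The letters are a description of the sequence, and binding was not measured.

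The question at each time point is whether loss of Mtgr1 alters the inhibitors' transcripts. In crypts, 0 of the 6 members tested passed an adjusted p of 0.05 in limma fitted over all genes, against 4.73% of 12980 genes (1.58% higher and 3.15% lower), while 3 of the 6 had an unadjusted p under 0.05, as did 18.5% of all genes. In crypts edgeR called 0 of the 6 (1.81% of 13188 genes) and DESeq2 1 (8.33% of 14617 genes). At day 1, 5 of 6 passed, 3 higher and 2 lower in Mtgr1-/-, where 58.9% of 12587 genes passed (30% higher and 28.9% lower). At day 3, 5 of the same 6 passed, again 3 higher and 2 lower, where 59% of 12782 genes passed (29.9% higher and 29.1% lower). The remaining member, Cdkn2a, reached the test only at day 3 and only because it was high in Mtgr1-/- libraries, so it is left out of these counts and described on its own. Most genes differed in the enteroids, so a call alone sets no member apart. Each of the 5 called members at either enteroid time had 3 libraries above or 3 below those of the other genotype without overlap, as did 68.1% of all genes tested at day 1 and 68.8% at day 3. The median log2 difference of the 6 members was -0.27 in crypts, 0.57 for day 1 and 0.52 for day 3, with medians over all genes of 0.01, -0.01 and 0.00. Each family held members that moved in opposite directions.

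**Figure D1:**
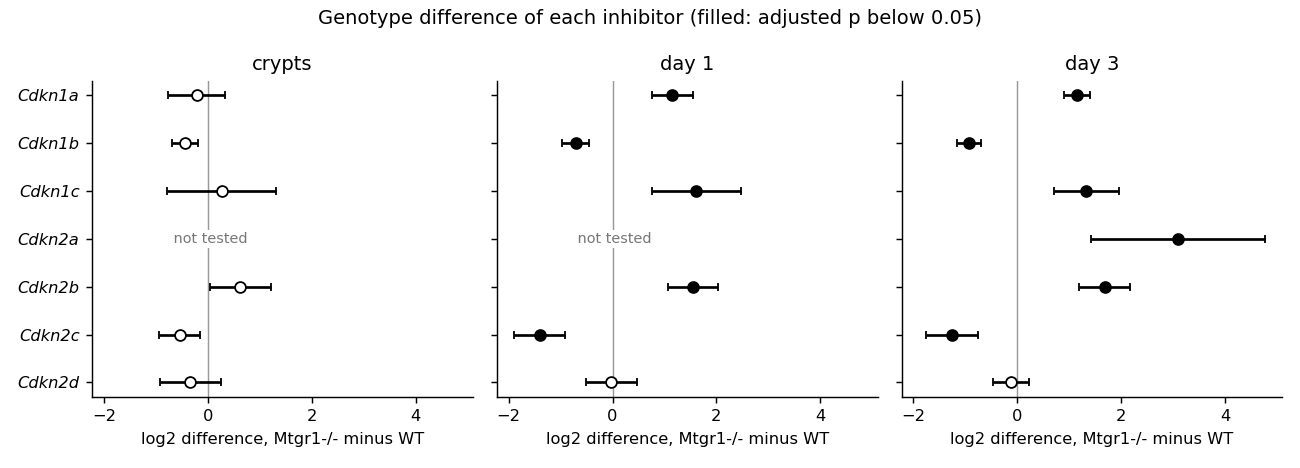
Log2 difference of each inhibitor between 3 Mtgr1-/- and 3 WT libraries (x axis, on log2(normalized count + 1), bars the 95% confidence interval) for crypts, day 1 and day 3, with filled points for an adjusted p below 0.05 in limma. In both enteroid panels Cdkn1a, Cdkn1c and Cdkn2b lie right of 0 and Cdkn1b and Cdkn2c left of it, Cdkn2d sits near 0, and Cdkn2a is tested at day 3 alone.

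Cdkn1a, which encodes p21, was not told apart between the genotypes in crypts. WT crypts held 3132, 4094 and 2362 normalized counts and Mtgr1-/- crypts 2344, 2425 and 3448. The libraries of the genotypes were interleaved, and the log2 difference was -0.21 with a 95% confidence interval from -0.76 to 0.34 (limma, adjusted p = 0.687). With 1 library left out it ran from -0.41 to -0.01. Without both mouse 3 libraries, the lowest of the alternative fits, it was -0.59 (adjusted p = 0.124, limma). In enteroids Cdkn1a was higher in every Mtgr1-/- library than in any WT library. At day 1 the counts were 2396, 1959.8 and 2232 in WT and 5266, 3755 and 5851 in Mtgr1-/-, a 2.23-fold difference (log2 1.15, SE 0.17, adjusted p = 0.000961 in limma). At day 3 they were 1679.6, 1594 and 1499 against 3042, 3999.6 and 3605, a 2.22-fold difference with a smaller error (log2 1.15, SE 0.11, adjusted p = 0.000103 in limma).

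Cdkn1b, which encodes p27, went the other way. The WT crypts held 1357, 1345 and 1479 normalized counts and the Mtgr1-/- crypts 1136, 1037 and 913, so all 3 Mtgr1-/- libraries were below all 3 WT libraries. This separation was shared by 25.5% of the genes tested in crypts, and the difference, -0.44 on the log2 scale (SE 0.11), did not pass over all genes (limma, adjusted p = 0.0705). In enteroids the difference passed, from 1353, 1540.2 and 1246 in WT to 850.1, 902 and 769 in Mtgr1-/- at day 1. This is 1.64-fold lower (log2 -0.71, SE 0.11, adjusted p = 0.00129 in limma). At day 3 the WT libraries held 1919, 2066 and 1886 and the Mtgr1-/- libraries 1077, 895 and 1122. Cdkn1b was thus 1.90-fold lower at day 3 (log2 -0.93, SE 0.10, adjusted p = 0.000207 in limma), the smallest standard error among the members at that time.

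Cdkn1c, which encodes p57 and is expressed mainly from the maternal allele, was scarce. In crypts the Mtgr1-/- libraries, at 108, 42.8 and 134 normalized counts, lay on both sides of the WT libraries at 54.6, 82.2 and 79.4. The log2 difference of 0.27 had an interval from -0.78 to 1.32 (limma, adjusted p = 0.807), and without Mtgr1-/- mouse 3 it was -0.06. At day 1, Mtgr1-/- mice 1 and 3 held 258 and 266 and mouse 2 held 106, all above the WT values of 48.5, 70.8 and 72.1. The difference was 3.06-fold (log2 1.61, SE 0.37, adjusted p = 0.00683 in limma), with more spread among the Mtgr1-/- libraries (209.9 ± 89.9, SD, n = 3) than among WT (63.8 ± 13.3). At day 3 the Mtgr1-/- values of 241, 153 and 136 were again above the WT values of 74.4, 49.9 and 82.3 (2.52-fold, log2 1.33, SE 0.27, adjusted p = 0.0037 in limma).

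Cdkn2b, which encodes p15 and is a known target of TGF-beta signalling, was the INK4 member with the highest count. Crypts of WT mice held 1281, 1864 and 985 normalized counts and those of Mtgr1-/- mice 1712, 2483 and 2053. WT mouse 2 lay above Mtgr1-/- mouse 1, so the genotypes overlapped, and the log2 difference of 0.63 (SE 0.24) did not pass (limma, adjusted p = 0.232). It was 0.41 without the WT library of mouse 3 and 0.87 without that of mouse 2. DESeq2 on recovered reads, which left out WT mouse 2 because its reads could not be recovered, gave 0.88 with an adjusted p of 0.00402. At day 1 the WT libraries were close together, at 960.3, 875 and 962, and the Mtgr1-/- libraries held 2552, 2065 and 3845. The difference was log2 1.55 (SE 0.20, adjusted p = 0.000693 in limma). Day 3 libraries held 552, 649 and 757 in WT against 1504, 2773 and 2163 in Mtgr1-/-, which is 3.21-fold higher (log2 1.68, SE 0.21, adjusted p = 0.000412 in limma).

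Cdkn2a, the neighbour of Cdkn2b, was at the edge of detection. No library of crypts or day 1 enteroids exceeded 4.07 normalized counts, the mean over 6 libraries was 2.6 in crypts and 1.83 at day 1, and the gene was under the minimum mean of 10 and not tested there. At day 3 the WT libraries stood at 0, 0.89 and 3.87 and the Mtgr1-/- libraries at 7.96, 21.9 and 26.9. In reads, the WT libraries held 0, 1 and 4 and Mtgr1-/- mice 1 and 3 held 7 and 24. The mean of 10.26 passed the minimum only through the Mtgr1-/- libraries, so the test was open to this gene because it was high there. With that condition, the log2 difference was 3.09 with an interval from 1.41 to 4.77 (limma, adjusted p = 0.00727). It fell under the minimum when Mtgr1-/- mouse 2 or mouse 3 was left out. With no minimum, and so without that condition, the adjusted p was 0.00621 (limma). These counts cannot say which of the 2 first exons was transcribed.

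Cdkn2c, which encodes p18, was lower in Mtgr1-/- enteroids at both times, as Cdkn1b was. In crypts it stood at 326, 292 and 322 normalized counts in WT and 267, 198 and 189 in Mtgr1-/-, without overlap but with a difference that did not pass over all genes (log2 -0.54, SE 0.17, adjusted p = 0.14 in limma). At day 1 the WT libraries held 356, 449.9 and 444 and the Mtgr1-/- libraries 173, 192 and 115. The gene was 2.64-fold lower (log2 -1.40, SE 0.21, adjusted p = 0.00119 in limma). Day 3 WT libraries held 416, 501 and 504 and Mtgr1-/- libraries 221, 139 and 250.4, with Cdkn2c 2.38-fold lower (log2 -1.25, SE 0.22, adjusted p = 0.00169 in limma). The day 3 spread among Mtgr1-/- libraries (203 ± 57.6, SD, n = 3) was smaller than the gap to WT (474 ± 50.3).

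Cdkn2d, which encodes p19Ink4d, was the one member with no called difference at any time. In crypts WT libraries held 113, 93.1 and 148 normalized counts and Mtgr1-/- libraries 114, 80.8 and 83.3, where the highest value came from WT mouse 3. The day 1 means were nearly equal, 68.2 ± 6.81 in WT and 67.4 ± 10.97 in Mtgr1-/- (SD, n = 3), and the interval of the log2 difference ran from -0.51 to 0.47 (limma, adjusted p = 0.933). At day 3 WT libraries held 97.7, 109.5 and 107 and Mtgr1-/- libraries 97.8, 99.4 and 92.1, with an interval from -0.46 to 0.22 (limma, adjusted p = 0.512). Changes beyond these intervals, such as those of Cdkn1b and Cdkn2c at day 1, lie outside what the Cdkn2d data allow, while smaller ones were not detectable with 3 mice a group.

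**Figure D2:**
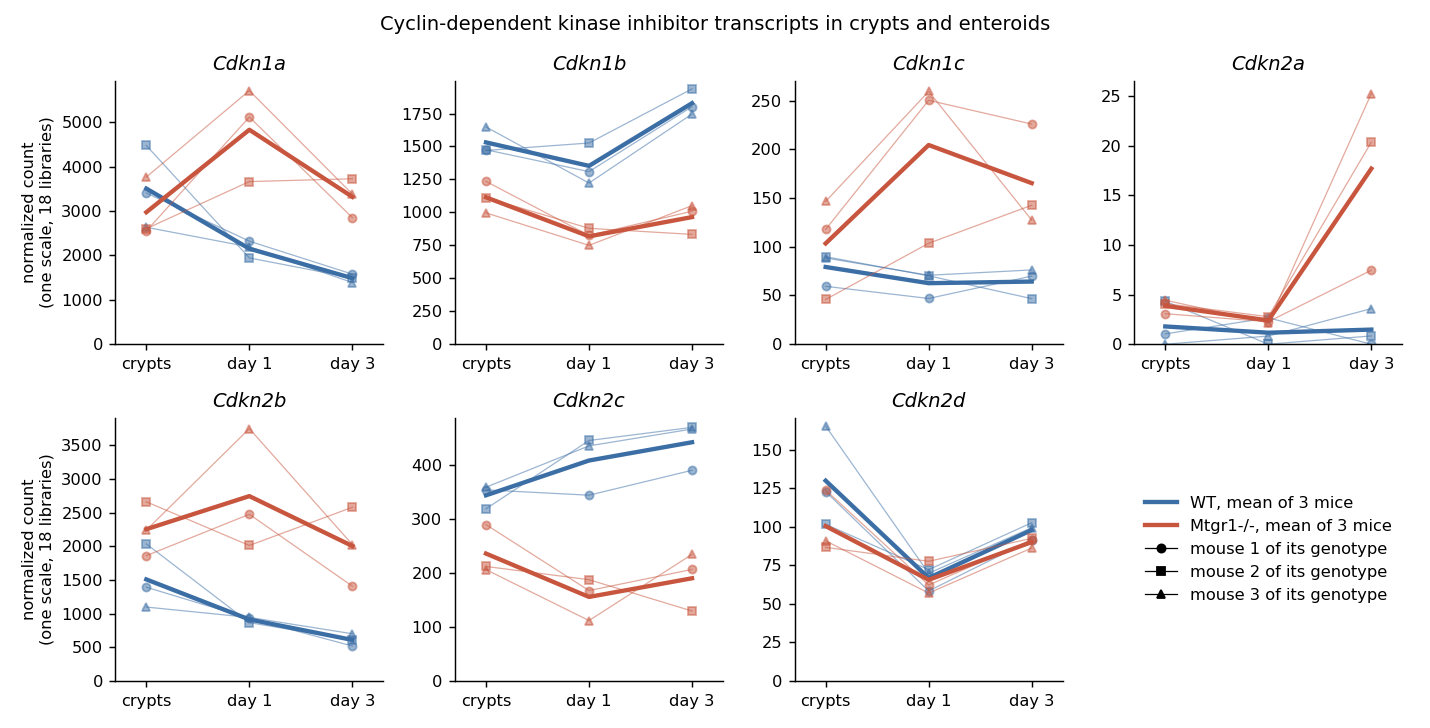
Normalized counts of each inhibitor on 1 scale over 18 libraries (y axis, linear from 0) for crypts, day 1 and day 3, with thin lines joining libraries of the same mouse number and thick lines for the mean of 3 mice. The WT mean of Cdkn1a goes from 3503 in crypts to 1486 at day 3 while the Mtgr1-/- mean peaks at 4827 at day 1, and Cdkn2d follows the same course in both genotypes.

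Levels across the 6 conditions were compared as descriptions on 1 common scale, since each table was normalized on its own. For Cdkn1a the order ran from Mtgr1-/- day 1 (mean 4827 on the common scale) through WT crypts (3503), Mtgr1-/- day 3 (3317) and Mtgr1-/- crypts (2971), neighbours whose ranges overlapped, to WT day 1 (2150.4) and WT day 3 (1486), which did not overlap the group above them. WT enteroids thus held the lowest Cdkn1a of the series. From crypts to day 1 the log2 level was lower in all 3 WT mice, by values of -0.55, -1.20 and -0.27, and higher in all 3 Mtgr1-/- mice, at 1.00, 0.49 and 0.60. Cdkn1c split in the same way, with -0.33, -0.35 and -0.32 in WT and 1.08, 1.16 and 0.82 in Mtgr1-/- mice. For Cdkn2b the 3 Mtgr1-/- groups (means 2747, 2255 and 2006 at day 1, in crypts and at day 3) overlapped each other and the WT crypts (1509), and WT day 1 (913) and WT day 3 (609) lay below without overlap.

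The members that were lower in Mtgr1-/- had their highest level in WT enteroids. Cdkn1b was highest at WT day 3 (mean 1828 on the common scale), without overlap with WT crypts (1531), and lowest at Mtgr1-/- day 1 (818). Cdkn2c was highest at WT day 3 (443), which overlapped WT day 1 (409), and the lowest WT group, crypts (344), did not overlap the highest Mtgr1-/- group, crypts (236). Cdkn2d was ordered by time and not by genotype, from WT crypts (130.02) and Mtgr1-/- crypts (100.5) to WT day 3 (98.0) and Mtgr1-/- day 3 (90.2) and then, with no overlap, both day 1 groups (66.9 and 65.7). In all 6 mice Cdkn2d was lower at day 1 than in crypts and higher again at day 3 than at day 1.

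Per kilobase of merged exon, the members differed widely in level. In WT crypts the mean normalized count per kb, on the common scale, was 1086 for Cdkn2b, 986 for Cdkn1a, 336 for Cdkn1b, 128 for Cdkn2c, 82.6 for Cdkn2d, 38.9 for Cdkn1c and 1.53 for Cdkn2a. By WT day 3 the first 3 were close, at 438 for Cdkn2b, 418 for Cdkn1a and 402 for Cdkn1b, with overlapping ranges. At Mtgr1-/- day 3 they were at 1443, 934 and 212, where the ranges of Cdkn2b and Cdkn1a overlapped and every Cdkn1b library lay below both.

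Whether the genotype difference itself depended on time was tested over all 18 libraries with mouse as a random effect. From crypts to day 1 the difference shifted in 2 of 6 members, against 41.4% of 12145 genes (20.3% in the positive and 21.1% in the negative direction). Cdkn1a shifted by 1.36 on the log2 scale (SE 0.28, adjusted p = 0.00267 in limma) and Cdkn2c by -0.86 (SE 0.31, adjusted p = 0.0362 in limma). The Cdkn2c call was lost when any 1 mouse other than Mtgr1-/- mouse 2 was left out (adjusted p from 0.0595 to 0.153), and the Cdkn1a call was kept in all 13 alternative fits. Cdkn2b (0.92, adjusted p = 0.055) and Cdkn1c (1.34, adjusted p = 0.0765) did not pass in limma. Cdkn2b passed with the mouse number as a block (adjusted p = 0.0184), with median-ratio rescaling (0.0487), without WT mouse 3 (0.0444) and without Mtgr1-/- mouse 2 (0.00745), and Cdkn1c passed without Mtgr1-/- mouse 2 (0.0189). Cdkn1b (-0.27, adjusted p = 0.166) passed with every library scaled to the same total (-0.62, adjusted p = 0.0252 in limma).

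From crypts to day 3 the difference shifted in 3 of 6 members, against 31.6% of genes (16.5% positive and 15.1% negative), Cdkn1a by 1.36 (adjusted p = 0.00405), Cdkn1b by -0.49 (adjusted p = 0.026) and Cdkn2b by 1.05 (adjusted p = 0.0393 in limma). The Cdkn1b call was lost without WT mouse 1 or 2 or Mtgr1-/- mouse 1 or 2 (adjusted p from 0.0723 to 0.103). That of Cdkn2b was lost without WT mouse 1 or 2 or Mtgr1-/- mouse 3 (adjusted p from 0.0733 to 0.165) and with every library scaled to the same total (0.82, adjusted p = 0.0666 in limma). Cdkn2c, at -0.71 with an adjusted p of 0.0884, passed without Mtgr1-/- mouse 3 (0.0258). Between day 1 and day 3, limma called 0 of 6 members, against 0.0329% of genes (0.0247% positive and 0.00823% negative), and 0 had an unadjusted p under 0.05, against 7.23% of genes. The shift of Cdkn1a was -0.00 with an interval from -0.60 to 0.59, and its crypt values are shared by both comparisons with crypts.

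Ratios of 2 inhibitors within a library are free of any library factor. They were chosen after the values were seen and carry no test. Cdkn1a exceeded Cdkn1b in WT crypts 2.31-, 3.04- and 1.60-fold in counts, and in Mtgr1-/- crypts 2.06-, 2.34- and 3.78-fold, with overlap. By day 3 the ratio was 0.88, 0.77 and 0.79 in WT, below 1 in every mouse, and 2.82, 4.47 and 3.21 in Mtgr1-/-. The Cdkn2b to Cdkn2c ratio separated the genotypes at all 3 times, most narrowly in crypts, where WT mouse 2 was at 6.38 and Mtgr1-/- mouse 1 at 6.42. Its geometric mean was 4.25 in WT and 9.57 in Mtgr1-/- crypts, 2.25 and 17.5 at day 1 and 1.37 and 10.5 at day 3.

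**Figure D3:**
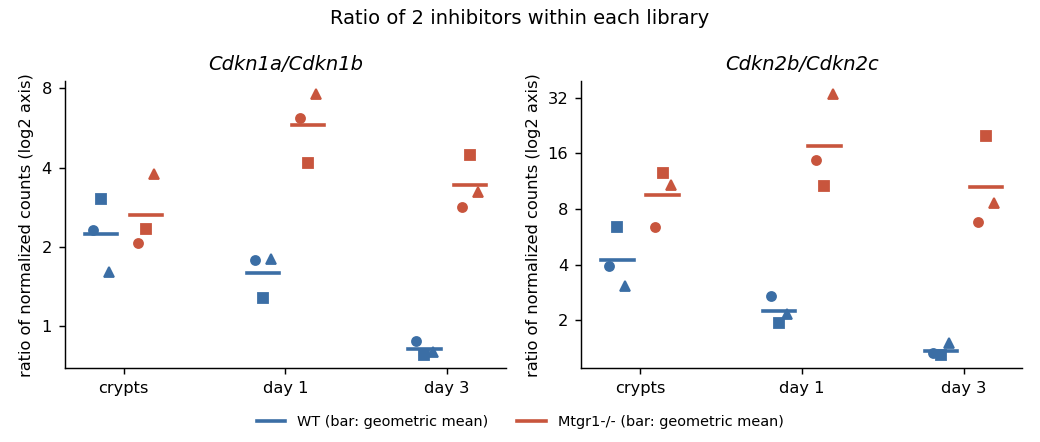
Ratio of normalized counts within each library (y axis, log2 scale) of Cdkn1a to Cdkn1b and of Cdkn2b to Cdkn2c, with 1 point per mouse (circle, square and triangle for mice 1, 2 and 3) and a bar for the geometric mean of each genotype at each time. The genotypes overlap for Cdkn1a over Cdkn1b in crypts and are apart in the other 5 sets, with WT ratios of Cdkn1a to Cdkn1b below 1 at day 3.

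Over the 18 libraries, each gene centred on its mean within each table, the members formed an opposed pair of sets. Pearson's r was 0.95 for Cdkn1b with Cdkn2c, 0.89 for Cdkn1a with Cdkn2b and -0.94 for Cdkn1b with Cdkn2b, and the points share the genotype difference and the library factor. Cdkn2d followed none of the others closely (r between -0.48 and 0.42). Among 10583 genes that are no member, the most similar patterns to Cdkn1a were those of Cyb5a (0.98), Exoc3l4 (0.97) and Mapk3 (0.97), and to Cdkn2b those of Nostrin (0.98), Nectin2 (0.98) and Ap1s1 (0.98). Cdkn1b was nearest to Vgll4 (0.98), Efna4 (0.98) and Slc14a1 (0.98), and Cdkn2c to Kif18b (0.97), Ube2c (0.97) and Usp42 (0.97), of which Kif18b is a mitotic kinesin and Ube2c a ubiquitin-conjugating enzyme of mitosis. Among the genes nearest to Cdkn1c were Elmo2 (0.93) and Lpin2 (0.93), and Cdkn2d was nearest to Pagr1a (0.81), Nsd3 (0.81) and Abca2 (0.81).

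RNA of kinases, cyclins and RB and E2F genes, only some of them direct targets of the inhibitors, was mostly lower in Mtgr1-/- enteroids. Of 23 genes, 2 were higher and 14 lower at day 1 (median log2 -0.51, all genes -0.01) and 1 was higher and 13 lower at day 3 (median -0.37, all genes 0.00). For this and the following lists, 30% of all genes tested were higher and 28.9% lower at day 1. The shares were 29.9% and 29.1% at day 3, and 1.58% and 3.15% in crypts. A count near these shares does not set a list apart. At day 1 the lowest were Ccnd1 (cyclin D1) at -1.59, Cdk2, which CIP/KIP proteins bind, at -1.31 and Cdk4, which INK4 proteins bind, at -1.27 on the log2 scale. At day 3 Ccne2 (cyclin E2) stood at -1.26, Cdk6 at -1.17 and E2f1 at -1.17. Rb1, which encodes the retinoblastoma protein, was higher at day 1 (0.55) and day 3 (0.44), as was its relative Rbl2 at day 1 (0.35). With every library scaled to the same total, Rb1 (0.225 at day 1 and 0.235 at day 3) and Rbl2 (0.03) were no longer called, and Rb1 at day 3 also lost its call without WT mouse 1 (adjusted p = 0.0563) or WT mouse 2 (adjusted p = 0.0913 in limma). In crypts 1 of 23 was called, Ccnd1 at -1.29 (adjusted p = 0.0435), a call lost without WT mouse 1 or 2 or Mtgr1-/- mouse 1 or 3 (adjusted p from 0.133 to 0.164 in limma).

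Of 14 genes that degrade or relocate the inhibitors' proteins, 3 were higher and 6 lower at each enteroid time and 0 differed in crypts. Skp2, the F-box protein that targets p27 for degradation, was at -1.36 (log2) at day 1 and -0.95 at day 3, its cofactor Cks1b at -1.09 and -0.63, and Dtl, which targets p21 during S phase, at -1.78 and -1.66. Their RNA was thus lower in the libraries where Cdkn1b RNA was also lower. Ddb1, the adaptor that pairs with Dtl, was higher (0.49 and 0.32), and so were Ubac1 (0.28 and 0.28), a subunit of a p27 ubiquitin ligase, and Uhmk1 (0.28 and 0.46), a kinase that phosphorylates p27, although with equal library totals at day 1 both stood at -0.04. The Ubac1 call was lost in 5 leave-one-out fits at day 1 and 4 at day 3, that of Uhmk1 in 3 at day 1 and that of Ddb1 in 2 at day 3 (adjusted p up to 0.0742, 0.137, 0.0754 and 0.0644 in limma).

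Trp53, whose protein p53 is the best known activator of Cdkn1a, was lower in Mtgr1-/- enteroids, at -0.92 (log2) at day 1 and -0.68 at day 3, while Cdkn1a was higher. These are RNA levels, and the activity of p53 was not measured here. The paper reports positive enrichment of p53 pathway genes in Mtgr1-/- enteroids at both times. Mdm2, another p53 target and its inhibitor, was higher (0.55 and 0.59), although its day 1 call was lost with every library scaled to the same total (0.225, adjusted p = 0.0924 in limma). Both were flat in crypts (-0.05 for Trp53 and 0.07 for Mdm2, neither called), and of the 6 genes of this list 4 were tested and 2 were called at each enteroid time. Among 9 tested genes of TGF-beta, Smad and Myc control, which act on Cdkn2b and Cdkn1a, 2 were higher and 2 lower at day 1 and 3 higher and 2 lower at day 3. The receptor Tgfbr2 was higher (0.51 and 0.86) and its partner Tgfbr1 lower (-0.57 and -0.63), Myc, a repressor of both genes, was lower (-0.64 and -0.61), and Max was higher (0.72 and 0.44), with Smad3 called at day 3 (0.36). The Tgfbr2 call at day 1 was lost in 4 leave-one-out fits (adjusted p up to 0.127) and that of Myc at day 3 without WT mouse 2 (adjusted p = 0.0523 in limma).

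Of 9 Foxo, Klf, Sp and Cdx2 genes, 3 were higher and 0 lower at day 1 and 3 higher and 1 lower at day 3. Klf4, an activator of Cdkn1a in epithelium, stood at 1.16 (log2) and 1.45. Foxo3, an activator of Cdkn1b, stood at 1.00 and 0.67, while Cdkn1b was lower. Whether either factor acted on the inhibitors in these libraries was not tested. Klf6 was higher at day 3 (1.25), Cdx2 at day 1 (0.39), and Sp1 was lower at day 3 (-0.29). Klf4 and Cdx2 at day 1 each lost the call in 4 leave-one-out fits (adjusted p up to 0.112 and 0.094) and Sp1 in 3 (adjusted p up to 0.0782). The list of E proteins with Id proteins, Hes1 and the factors Atoh1 and Neurog3 held 3 lower of 10 already in crypts, and 3 higher and 6 lower at each enteroid time. Neurog3 was at -5.50, -6.82 and -5.30 at the 3 successive times and Atoh1 at -4.66, -4.83 and -4.43. Id1, Id2 and Id3, which sequester E proteins, were higher (0.55, 1.35 and 1.59 at day 1 and 0.78, 1.07 and 0.71 at day 3), whereas Id4 was lower at all 3 times (-2.86, -4.93 and -4.04). The Id3 call at day 3 was lost in 4 leave-one-out fits (adjusted p up to 0.137) and the Id4 call in crypts without WT mouse 1 or 2 (adjusted p of up to 0.0859 in limma).

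Polycomb proteins are known repressors of the Cdkn2a and Cdkn2b region. Of 11 such genes 1 was higher and 5 lower at day 1 and 1 was higher and 6 lower at day 3, with 0 called in crypts. The methyltransferase Ezh2 was at -0.66 (log2) and -0.81, Cbx7 at -0.89 and -0.83, Eed at -0.66 at day 1 and Pcgf2 at -0.67 at day 3, while Ezh1 was higher at day 3 (0.29). The Ezh1 call was lost without WT mouse 2 or WT mouse 3 (adjusted p up to 0.0698 in limma).

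Scaling every library to the same total also ended the calls of Ddb1, Tgfbr2, Klf4, Cdx2 and Id1 as higher at day 1 (adjusted p from 0.0621 for Klf4 to 0.729 for Cdx2) and of Ddb1, Ubac1, Uhmk1, Smad3, Id3 and Ezh1 at day 3 (from 0.0632 for Uhmk1 to 0.505 for Ubac1), and that of Ccnd1 as lower in crypts (adjusted p = 0.0556 in limma).

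**Figure D4:**
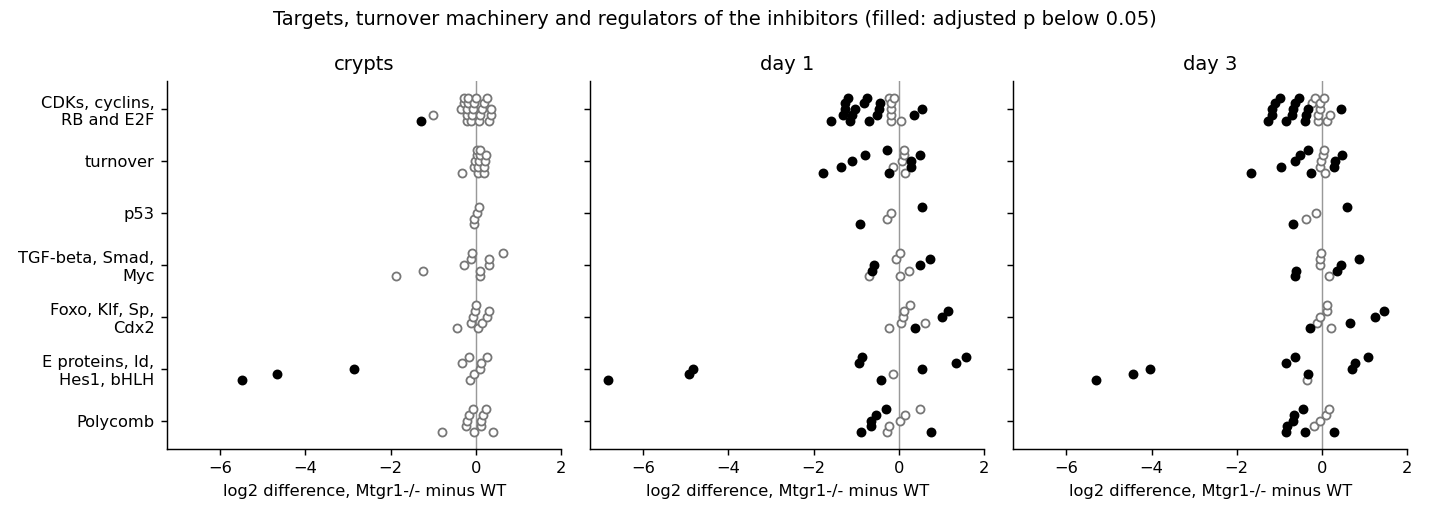
Log2 difference between Mtgr1-/- and WT (x axis, on log2(normalized count + 1)) of each tested gene of 7 lists, for crypts, day 1 and day 3, with 1 point per gene, filled for an adjusted p below 0.05 in limma. In crypts 1 filled point lies in the list of kinases, cyclins, RB and E2F and 3 in that of E proteins, Id, Hes1 and basic helix-loop-helix factors, and in enteroids the first list has 14 filled points left of 0 at day 1 and 13 at day 3.

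Markers of cell state and cell type moved with these differences. At day 1 and day 3, 10 of 10 enterocyte markers were higher in Mtgr1-/-, with a summed level of 180500 to 235900 normalized counts in WT and 522200 to 865300 in Mtgr1-/- libraries at day 1, and 129900 to 144200 against 396500 to 678100 at day 3. All 10 markers of cycling cells were lower at both times, from 45360 to 45640 in WT against 15750 to 24970 in Mtgr1-/- at day 1, and from 47620 to 51380 against 18350 to 30040 at day 3. In crypts neither list held a called gene, and the summed levels of cycling markers were 22490 to 28040 in WT and 19150 to 25000 in Mtgr1-/-. Stem cell markers were lower in 6 of 6 genes at both enteroid times (43850 to 75350 against 4344 to 6148 at day 1), and Paneth markers in 7 of 7. Goblet markers (6 of 6) and enteroendocrine markers (8 of 8) were lower already in crypts. Paneth markers there summed to 125600 to 173400 in WT and 1375 to 44230 in Mtgr1-/-, with 0 of 7 called. Stem cell markers in crypts summed to 35740 to 44980 against 4982 to 11190, with 1 of 6 called. The median log2 difference of these 6 genes was -0.30 (all genes 0.01), so the sums, which abundant genes dominate, do not describe the list as a whole. By q-RT-PCR of crypts the paper reports Olfm4 nearly undetectable in Mtgr1-/-, Ascl2 unchanged and Lgr5 higher. Tuft markers in crypts summed to 1252 to 1364 in WT and 1798 to 5984 in Mtgr1-/-, with 0 of 5 called. At each enteroid time 3 of 5 tuft markers were lower. The part of these markers in the inhibitors' differences was not tested, and in bulk libraries fewer cells of a type and less RNA per cell cannot be told apart. Markers of fibroblasts, endothelium, muscle and glia, each list on its own, summed to at most 551 normalized counts in any library, the fibroblast value of WT crypt mouse 3.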

How the data were processed

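RNA was measured in 18 bulk libraries, and groups and mouse numbers came from the labels. Per the methods, single reads of 50 bp were trimmed with fastp 0.20.0, quantified with Salmon 1.3.0 against GENCODE transcripts, summed per gene and analysed with DESeq2 1.26.0. As deposited, the signal values are gene-level counts after division by 1 factor per library, with a separate table for each time point. The deposited log2 fold changes, the score (a Wald statistic) and the p-value columns hold the authors' own comparisons and were not used, nor was their mean column.

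Genotypes were compared within each table with limma 3.58.1 (R 4.3.3) on log2(normalized count + 1), over all genes with a mean of at least 10, two-sided, with Benjamini-Hochberg adjustment over those genes and a threshold of 0.05. Fold changes are on that scale and understate those of low genes. Changes of the difference between times were fitted over 18 libraries with mouse as a random effect (estimated within-mouse correlation -0.00481). Levels across tables were placed on 1 scale by median ratios and not tested. Whole reads (within 0.01) were recovered for 16 libraries and analysed with edgeR 4.0.16 and DESeq2 1.42.0 as alternatives, leaving out WT crypt mouse 2 and Mtgr1-/- day 3 mouse 2. All models were tested on simulated data. Gene positions and exon lengths came from GENCODE on GRCm38, promoters from RefSeq.

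At day 1, libraries with the same mouse number deviated together (correlations of 0.12, 0.23 and 0.22, from the data, not the labels). So did those of mouse 2 and mouse 3 in crypts (0.27 and 0.35). The p-values measure the spread between mice. The members and lists were chosen with earlier results of these data known. Named in the text are all members, in each list the up to 3 largest rises and 3 largest falls among called genes at each time, and the 3 genes most correlated with each member, of which 2 genes are not reported here. Proteins were not analysed here.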

Additional observations from a re-analysis of the deposited data

Results flagged for a closer look

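The difference between Mtgr1-/- and WT itself differed between enteroids and crypts, by the limma test of that change, for 4 members in 5 results. The shares called were 2 of 6 members against 41.4% of all genes from crypts to day 1, and 3 of 6 against 31.6% from crypts to day 3, so these counts do not set the members apart. From crypts to day 1 it shifted by 1.36 on the log2 scale for Cdkn1a (adjusted p = 0.00267, a larger change in 3 of 3 Mtgr1-/- mice than in any WT mouse) and by -0.86 for Cdkn2c (adjusted p = 0.0362, below every WT mouse in 3 of 3). From crypts to day 3 it shifted by 1.36 for Cdkn1a (adjusted p = 0.00405, 3 of 3 mice), by -0.49 for Cdkn1b (adjusted p = 0.026, 3 of 3 mice) and by 1.05 for Cdkn2b (adjusted p = 0.0393, 3 of 3 mice). For Cdkn1b this separation was nearly a tie, with a log2 change on the common scale of 0.077 in Mtgr1-/- mouse 3 and 0.083 in WT mouse 3. The share of all genes separated in this way was not counted. Groups of 3 are too small for a check of single libraries.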

How the results depend on the processing

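The 5 members called at both day 1 and day 3 kept their calls in each of 18 alternative fits. Cdkn2a was called in the 13 day 3 fits that tested it (log2 1.43 to 4.52), but was not tested in the other 5, and since most of the 13 used a minimum that it passed through its high libraries, they are no sign of stability. In crypts the count of called genes ran from 176 to 608 with 1 library left out, and was 2100 with array weights, 239 with edgeR and 1217 with DESeq2, against 614. Array weights called 1 member there (Cdkn1b, -0.35, adjusted p = 0.0223) and DESeq2 called 1 (Cdkn2b). The Cdkn1c difference in crypts ran from -0.056, without Mtgr1-/- mouse 3, to 0.757 and that of Cdkn2d at day 1 from -0.34 to 0.22, with 0.223 under quantile normalization and, with 1 library left out, -0.148 to 0.072. Equal library totals, chosen after seeing the data, moved the median of all genes by -0.33 at day 1 and -0.20 at day 3 and the share of calls that were higher from 50.9% to 28.2% and from 50.7% to 35.1%, and gave -0.037 for Ubac1 and -0.039 for Uhmk1 at day 1. They also turned the small shifts of Cdkn2d from crypts to day 1 (-0.03) and to day 3 (-0.009) and from day 1 to day 3 (0.021), and that of Cdkn1a from day 1 to day 3 (0.115), which median-ratio rescaling put at 0.005. Of the calls of shifts from crypts, equal totals ended that of Cdkn2b at day 3 and added that of Cdkn1b at day 1.

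With 1 mouse left out, members called ran from 1 to 4 for the shift from crypts to day 1 (genes 3339 to 5546) and from 1 to 3 for that to day 3 (genes 1657 to 3708). From day 1 to day 3 the genes called ran from 0 to 882, the highest without Mtgr1-/- mouse 2, and were 16 with a pseudocount of 8, 10 with a replicate block and 22 with equal totals, against 4. The uncalled shifts of members over that interval turned with 1 mouse left out, for Cdkn1a at -0.28 to 0.16, Cdkn2b at -0.27 to 0.35, Cdkn1c at -0.63 to 0.11, Cdkn2c at -0.24 to 0.55 and Cdkn2d at -0.159 to 0.006. The cause was not tested.

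Fits with the mouse number as a replicate block called 562 of 12980 genes for crypts, 8027 of 12587 for day 1 and 7289 of 12782 for day 3. Members called were 0 of 6, 5 of 6 and 6 of 7. The 7 include Cdkn2a, tested only through its high Mtgr1-/- libraries. Beside Cdkn2b from crypts to day 1 and Rb1 at day 3 (adjusted p = 0.0519 in limma), these fits changed no call of a gene named above. In crypts the same-numbered pairs correlated at 0.08, 0.27 and 0.35, and WT mouse 1 with Mtgr1-/- mouse 2 at 0.20. At day 3 the same-numbered pairs stood at -0.01, -0.00 and -0.02. The labels give only the mouse number, and what such libraries share was not tested. Of 1315 fits of named pathway genes, 89 lost a call and 2 turned. Depth limits Cdkn2a most, with at most 4 reads recovered in any WT library.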
